A study of Mus musculus with 4 samples.

Results

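The 10 genes described here are Wnt4, Rspo1, Foxl2, Fst, Irx3, Lgr5, Axin2, Lef1, Runx1, and Znrf3, which act in or are marked by the pathway that turns supporting cells of the fetal gonad into granulosa cells. They were taken by symbol from the 31053 genes of the deposited matrices, and all 10 were found. No threshold was applied to them, but the list was proposed with their levels in these libraries known. The levels and folds are therefore given as a description, with no test, and they support nothing beyond themselves.

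In the XX gonad, WNT4 and R-spondin 1 keep β-catenin active in the supporting cells, and the transcription factors FOXL2 and RUNX1 help to set and hold granulosa identity. R-spondins bind receptors of the LGR family and hold back ZNRF3, a ubiquitin ligase that removes Wnt receptors from the membrane, and β-catenin then acts with LEF1 and related factors on targets such as Axin2. In the XY gonad, SRY and SOX9 direct the same cells to become Sertoli cells, and the male and female pathways restrain each other.

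Expression was read in single cells of 4 XY mouse libraries, with a single library for each condition. E10.5, E11.5, and E12.5 are gonads of ICR embryos, and the E10.5 tissue still held dorsal mesenchyme, whereas the mesonephros had been removed at the later stages. D6 is a culture of 1 ES cell line, N271S9C, labelled C57BL/6J, although the study's methods describe a cross with another strain. Its labelled transgenes are Nr5a1-hCD27a, which the methods spell Nr5a1-hCD271 and which puts human CD271 under Nr5a1 sequences, and Sox9-2A-CGFP, a fluorescent protein joined to Sox9. These cells passed through an epiblast-like stage with FGF2 and Activin A and were then aggregated with 14 μM CHIR99021, an activator of Wnt signaling, together with BMP4 and EGF. Retinoic acid, Sonic hedgehog, PD0325901, EGF, and BMP4 followed on D2, and BMP4, FGF9, and 20 μM IWR1, an inhibitor of Wnt signaling, on D4, before CD271-positive cells were enriched on magnetic beads at D6. By the paper's account, CD271-positive cells were still a minority after this enrichment. No library made without IWR1 was analysed here, so no effect of the inhibitor can be read. The reagent kit was version 2 for the in vivo gonads and version 3 for D6, and kit, strain, culture, sorting, and origin cannot be told apart.

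Limits on genes per cell and on mitochondrial UMIs retained 3837 cells in E10.5, 2101 in E11.5, 2764 in E12.5, and 2285 in D6, or 10987 cells in all, with a median of 8167, 11926, 10946, and 4607 UMIs per cell. Between 7 and 15 cell barcodes were shared by each pair of in vivo libraries and 0 by D6 with any of them. UMIs of Y-linked genes were found in 55.69% to 80.46% of cells in each library and Xist UMIs in at most 1.047%. Endogenous Nr5a1, the gene behind the selection marker, had a UMI in 1.876% of cells in E10.5, 34.75% in E11.5, 31.95% in E12.5, and 29.06% in D6. These shares were not corrected for the lower depth of D6 cells.

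A level is given in CPM, the sum of a gene's UMIs over a group of cells for each 1000000 UMIs of all genes, with a 95% Poisson interval, and a share is the percentage of cells with at least 1 UMI. Both intervals cover counting error only. The assay counts 3′ ends, so a level is compared between libraries for the same gene and never between genes. Fewer expressing cells and less RNA per cell cannot be told apart in a level, and for this reason shares are given beside the levels over all cells. Because D6 cells were the shallowest, shares were also computed after each cell had been thinned to 3000 UMIs, which left out 184 cells in E10.5, 308 in E11.5, 0 in E12.5, and 287 in D6.

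Cells were also divided by marker gates, each of which takes a cell with at least 1 UMI. Sox9 or Amh marks supporting cells, Pax8 the supporting-like lineage, Upk3b the coelomic epithelium and progenitors, and Pdgfra interstitial and mesenchymal cells. The Sox9 or Amh gate held 790, 786, 994, and 321 cells from E10.5 to D6, the Pax8 gate 95, 67, 44, and 97, the Upk3b gate 311, 308, 257, and 186, and the Pdgfra gate 917, 633, 1103, and 604. At E11.5, E12.5, and D6, every further marker fixed for each gate was higher inside the gate than outside it. Any excess counted, and some were small. Nr2f2 in the Pdgfra gate had 1315.1 CPM against 955.5 outside at D6, and 330.1 against 96.13 at E12.5. In the Pax8 gate of D6, Itm2a had 446.4 against 317.9, whereas C1qtnf12 had 267.9 against 37.36. Inside the Sox9 or Amh gate, however, every Sertoli gene of this check was lower at D6 than at E12.5. Cst9 had 96.84 against 2156.8 CPM, Aard 106.8 against 1492, and Dhh 20.41 against 161.4. At E10.5, only 1 of the 6 Sertoli genes was higher in Sox9 or Amh positive cells, so this gate does not mark Sertoli cells there. The gates overlap, and between 27.7% and 29.1% of Sox9 or Amh positive cells were also Pdgfra positive in each library. Of all cells, 23.9%, 30.13%, 39.91%, and 26.43% were Pdgfra positive from E10.5 to D6. In thinned cells the Pdgfra gate held 11.2%, 12.1%, 17.73%, and 18.37%, and the Sox9 or Amh gate 9.937%, 25.88%, 25.22%, and 11.01%. The sizes of the gates thus depend on depth. Of Pax8 positive cells, 23.16%, 56.72%, 50%, and 27.84% were also Sox9 or Amh positive, compared with 20.59%, 37.41%, 35.96%, and 14.05% of all cells. The gates are therefore not separate lineages.

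Before the levels, the bases upstream of a pair of members are shown, because Wnt4 had the highest ratio of D6 to E12.5 and Axin2 is a direct target of β-catenin. Promoters of 7 of the 10 genes, in 11 windows, were found in RefSeq on GRCm38.p6, and those of Fst, Lgr5, and Znrf3 were not. The Wnt4 stretch is at chr4:137277385-137277488 on the plus strand and the Axin2 stretch at chr11:108920099-108920348 on the plus strand, each ending just before the annotated gene start. Capitals mark the GC box, GGGCGG on either strand.
Wnt4: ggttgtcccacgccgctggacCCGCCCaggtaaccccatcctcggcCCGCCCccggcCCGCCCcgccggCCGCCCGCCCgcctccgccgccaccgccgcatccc
Axin2: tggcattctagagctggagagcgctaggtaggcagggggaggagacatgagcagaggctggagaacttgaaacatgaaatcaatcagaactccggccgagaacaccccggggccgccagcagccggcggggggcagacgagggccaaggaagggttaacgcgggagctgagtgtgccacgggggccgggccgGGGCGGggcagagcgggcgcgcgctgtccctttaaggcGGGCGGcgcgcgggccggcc

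The Wnt4 stretch held 5 GC boxes, some of which overlap, and 83.65% G and C, whereas the Axin2 stretch held 2 and 69.2%. In the window of 250 bases before the RefSeq start, Wnt4 had 85.2% G and C, at percentile 99.89 of all promoters, whose median was 52.4%. A GC box was found for Wnt4, Axin2, Foxl2, and Lef1, or 4 of the 7 genes, and in 32.7% of 32851 promoter windows. A CCAAT box was found for Runx1 and in 33.8% of windows. Members are counted by gene, where any of its windows suffices, and all promoters by window, so these shares are not like measures. No member's window held the letters searched for TCF/LEF (CTTTGAT or CTTTGAA, 7.48% of windows), NR5A1 (AAGGTCA, 4.08%), forkhead factors (GTAAACA, 3.17%), or RUNX (TGTGGTT, 4.4%) on either strand. These are matches of letters in a short window and not binding sites. The windows follow RefSeq starts, and those of Foxl2 and Irx3 lie inside the gene positions given below. Part of the Wnt4 window and some windows of Lef1 and Runx1 do too.

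Over all retained cells, Wnt4 was 30.13 times as high at D6 as at E12.5. In this comparison it stood apart from the other 9 genes, which differed by at most 11.07-fold. Of the 10 genes, 5 were at least 2-fold higher at D6 than at E12.5, namely Wnt4, Foxl2, Fst, Axin2, and Runx1, and 1, Lgr5, was at least 2-fold lower. Among the 9611 genes with at least 10 CPM in either library, 27% were as much higher and 7.83% as much lower. Foxl2, Fst, Irx3, and Lgr5 stayed below 10 CPM in both, and of the 6 members that reached it 3 were higher and 0 lower. The median log2 difference was 0.94 over the 10 members and 0.32 over all genes that reached 10 CPM.

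Against E11.5, 3 genes were at least 2-fold higher at D6, Wnt4, Foxl2, and Axin2, and 2 were lower, Irx3 and Lgr5. Foxl2, with few UMIs, had a larger ratio than Wnt4 in this comparison. Here 28.2% of 9537 genes were higher and 5.93% were lower, and among the 7 members that reached 10 CPM 2 were higher and 1 lower. The median log2 difference was 0.49 over the 10 members and 0.40 over all genes. At E12.5, 0 genes of the list were at least 2-fold higher than at E11.5, while Wnt4, Fst, and Runx1 were at least 2-fold lower. Of 8269 genes, 1.9% were higher and 1.66% lower in that comparison.

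The D6 library shifted against E12.5 as a whole, and the share of genes called in each direction depended on the scaling. With TMM factors, which assume that most genes do not differ, all log2 differences of D6 from E12.5 fell by 0.47, and 15.5% of genes were then higher and 18.6% lower. Against E11.5 they fell by 0.44, and 16.2% and 14.3% were higher and lower. The D6 to E11.5 fold was then 9.117 for Foxl2 and 7.445 for Wnt4. The D6 to E12.5 fold became 21.69 for Wnt4, 7.967 for Foxl2, 4.131 for Fst, and 2.371 for Runx1, and Axin2, at 1.651, no longer passed 2-fold. Directions of Rspo1 and Znrf3 against E11.5 turned with this scaling and are not read here.

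**Figure D1:**
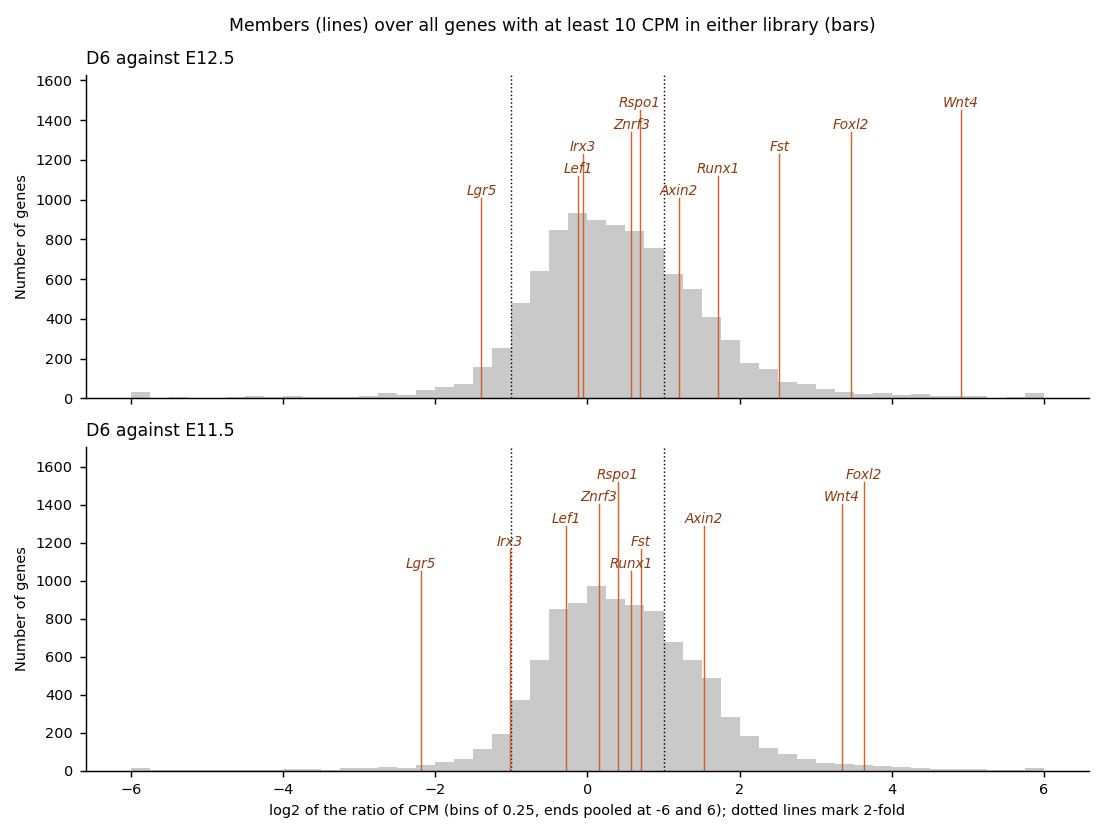
Number of genes (bars) by the log2 ratio of CPM of D6 to E12.5 and of D6 to E11.5, over genes with at least 10 CPM in either library, with the 10 members as labelled lines. Wnt4 lies far right of the 2-fold line in both panels, at percentile 99.47 and 98.38 of the genes, with Foxl2 next to it, and Lgr5 lies left of the 2-fold line in both.

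Wnt4 encodes a secreted Wnt that opposes the male pathway and lies on chromosome 4 at 137277489 to 137299726 on the plus strand (GRCm38). Its level was 23.96 CPM (22.31 to 25.71) in E10.5, 37.16 (34.79 to 39.64) in E11.5, 12.49 (11.34 to 13.74) in E12.5, and 376.5 (365.6 to 387.7) in D6. The D6 level was thus 30.13 times that of E12.5 (27.28 to 33.36) and 10.13 times that of E11.5 (9.436 to 10.89), and the intervals of all 4 libraries stay apart. Within the embryo, E11.5 was the highest stage and E12.5 was 2.974-fold below it.

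Both the share of Wnt4-positive cells and the UMIs in each of them were higher at D6. A UMI was found in 9.904% of cells in E10.5, 17.56% in E11.5, 9.66% in E12.5, and 58.47% in D6, and after thinning in 5.12%, 9.15%, 4.05%, and 48.3%. Positive cells carried a mean of 2.05, 2.48, 1.599, and 3.356 UMIs, and the highest cell 11, 19, 8, and 25. At equal depth, 2 or more Wnt4 UMIs were found in 27.68% of D6 cells, against 1.642%, 2.956%, and 0.941% of the cells from E10.5 to E12.5.

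**Figure D2:**
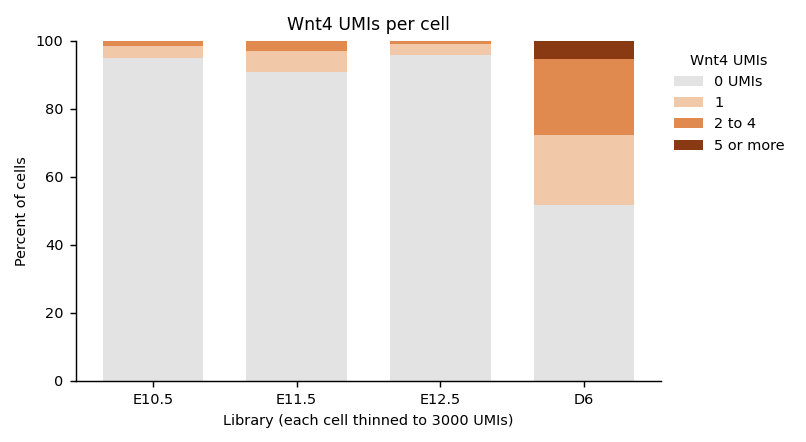
Percent of cells in each library with 0, 1, 2 to 4, and 5 or more Wnt4 UMIs after each cell was thinned to 3000 UMIs. At D6, 5.455% of cells hold 5 or more, while no other library passes 0.1115%.

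Cells with UMIs of both Pecam1 and Cdh5, which are endothelial genes, served as cells that should lack most members. They numbered 40, 24, 28, and 14 from E10.5 to D6, with a median of 10870, 14783, 17055, and 8945 UMIs. Wnt4 had 1 UMI in them in E10.5, 0 in E11.5 and E12.5, and 4 in D6, in 2 of the 14 cells, or 31.22 CPM (8.506 to 79.93). This D6 level was below that of all D6 cells and not below those of the in vivo libraries. The wider group of 35 D6 cells with UMIs of at least 2 of 6 endothelial markers had 73 Wnt4 UMIs, or 291.4 CPM (228.4 to 366.4), and a Wnt4 UMI was found in 45.45% (28.11 to 63.65) of them after thinning, an interval that holds the 48.3% of all D6 cells. These endothelial groups thus gave different levels at D6, and the part of free RNA in them was not tested. Rspo1, Fst, Axin2, and Runx1 had 0 UMIs in the Pecam1 and Cdh5 positive cells of every library, which at D6, at a limit of 3 of the 14 cells, allows a share of up to 21.43% and so bounds the background only loosely.

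The high Wnt4 level was found in every gate of D6. Sox9 or Amh positive cells had 22.02 CPM in E10.5, 37.43 in E11.5, 13.37 in E12.5, and 268.5 (245.8 to 292.8) in D6, and 51.09% of the D6 cells in this gate had a Wnt4 UMI. Upk3b positive cells had 47.65, 18.51, 5.78, and 220.8 CPM in the same order, and Pdgfra positive cells 22.81, 34.68, 12.24, and 322.3. The ratio of D6 to E12.5 ranged over the gates from 20.08 (16.77 to 24.15) in Sox9 or Amh positive cells to 39.95 (23.14 to 75.61) in Pax8 positive cells.

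In the embryo, Wnt4 was highest in Pax8 positive cells. Their level was 129.1 in E10.5, 205.9 in E11.5, and 23.14 (12.32 to 39.57) in E12.5, and in D6 it was 924.6 CPM (842.6 to 1012.5), with a UMI in 43.16%, 59.7%, 13.64%, and 85.57% of the cells. This gate was the highest of the 4 in every library, although at E12.5 it rests on 13 UMIs in 6 cells. Among cells positive for 1 gate only, it stayed the highest in E10.5, E11.5, and D6, at 112.8, 165.2, and 1043.8 CPM, but not in E12.5, where its 18 cells held 1 UMI and the other 3 gates had 12.14 to 15.16 CPM. D6 cells with no gate marker, 1249 cells, had 410.2 CPM, above all D6 gates but Pax8. D6 cells with and without an Nr5a1 UMI had overlapping intervals, at 391.4 (372.6 to 410.9) and 368.5 (355.1 to 382.3).

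Rspo1, which encodes the R-spondin that sustains Wnt signaling in the XX gonad, lies on chromosome 4 at 124986430 to 125009099 on the plus strand. Its level was 30.76 CPM in E10.5, 26.8 in E11.5, 21.89 in E12.5, and 35.36 (32.06 to 38.9) in D6, with shares of 16.76%, 20.66%, 14.76%, and 12.65%, or 7.88%, 7.14%, 5.64%, and 8.91% after thinning. D6 was 1.615-fold (1.43 to 1.823) above E12.5 and so within 2-fold of each stage.

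Rspo1 was highest in Upk3b positive cells among the 4 gates in every library, with an interval that overlapped that of Pax8 positive cells at E10.5 and D6. Among cells positive for 1 gate only, Pax8 positive cells were instead above Upk3b positive cells in both, at 59.82 against 59.25 CPM and 92.1 against 78.64. Upk3b positive cells had 58.51 CPM in E10.5, 57.85 in E11.5, 103.5 in E12.5, and 74.39 in D6, and 35.05%, 50%, 65.37%, and 36.56% of them had a UMI. Relative to Upk3b negative cells of the same library, this was 2.865-fold in E11.5, 8.496-fold in E12.5, and 2.421-fold in D6. Sox9 or Amh positive cells had 21.75, 25.81, 19.55, and 35.6 CPM.

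Lgr5 encodes an R-spondin receptor and lies on chromosome 10 at 115450311 to 115587780 on the minus strand. Its level was 0.9844 CPM in E10.5, 12.67 (11.3 to 14.16) in E11.5, 7.286 (6.409 to 8.25) in E12.5, and 2.772 (1.908 to 3.892) in D6. D6 was 2.63-fold below E12.5 and 4.571-fold below E11.5, and the intervals of the 4 libraries stay apart. Shares were 0.834%, 9.329%, 6.078%, and 1.05%, and after thinning 0.192%, 3.68%, 1.85%, and 0.901%.

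At E11.5 and E12.5, nearly all Lgr5 UMIs lay in Sox9 or Amh positive cells. Because the gates overlap, Pdgfra positive cells also held 88 of the 312 UMIs in E11.5 and 13 of the 249 in E12.5. Sox9 or Amh positive cells held 304 of 312 Lgr5 UMIs in E11.5, 241 of 249 in E12.5, and 25 of 33 in D6, against 10 of 32 in E10.5. Their levels were 1.35, 30.18, 20.4, and 13.09 CPM from E10.5 to D6, and those of E11.5, E12.5, and D6 were 54.91, 57.02, and 16.35 times the level outside the gate. Within the gate D6 was 0.6415 of E12.5 (0.407 to 0.9701), a smaller gap than over all cells, where D6 also had fewer Sox9 or Amh positive cells. The gap depended on the gate, since cells with at least 2 UMIs of Sox9 or Amh had 29.64 CPM in D6 and 29.23 in E12.5.

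The 24 D6 cells with an Lgr5 UMI had 890.6 CPM of Amh, the Sertoli cell hormone, against 21.21 in the other D6 cells, and 236.3 of Sox9 against 35.09. An Lgr5 UMI at D6 thus went with high Amh and Sox9, the genes of the gate in which it lies. At E11.5 and E12.5 the Lgr5-positive cells had little Lef1, at 1.443 and 2.368 CPM against 19.13 and 16.22 in the other cells. At E10.5 they had 10.13 times the Pax8 level of the other cells.

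Znrf3, the ligase that R-spondins hold back, lies on chromosome 11 at 5276324 to 5444847 on the minus strand. Its level was 8.09 CPM in E10.5, 13.73 (12.3 to 15.27) in E11.5, 10.18 (9.141 to 11.31) in E12.5, and 15.2 (13.07 to 17.59) in D6. The E11.5 and D6 intervals overlap, and no pair among E11.5, E12.5, and D6 was 2-fold apart. Shares were 6.411%, 13.09%, 11.03%, and 7.484%, and after thinning 2.464%, 4.071%, 3.111%, and 4.354%. Sox9 or Amh positive cells had 9.46, 22.44, 16.85, and 21.46 CPM, which was 2.916-fold, 2.528-fold, and 1.532-fold the level outside the gate at E11.5, E12.5, and D6. Pax8 positive cells had 20.04, 26.69, 16.02, and 35.72 CPM from E10.5 to D6, on 18, 21, 9, and 18 UMIs. Their level was thus above that of Sox9 or Amh positive cells in E10.5, E11.5, and D6, on few UMIs.

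Axin2 encodes a scaffold of the complex that degrades β-catenin and is itself a transcriptional target of β-catenin. The gene lies on chromosome 11 at 108920349 to 108950783 on the plus strand. Its level was 9.936 CPM in E10.5, 5.888 (4.969 to 6.928) in E11.5, 7.433 (6.547 to 8.405) in E12.5, and 17.05 (14.78 to 19.56) in D6. D6 was 2.294-fold (1.898 to 2.77) above E12.5 and 2.896-fold (2.328 to 3.609) above E11.5, so 2-fold lies inside the first interval. The shares showed less of this difference, with 7.532%, 5.712%, 8.357%, and 7.44% of cells from E10.5 to D6, and 3.31%, 2.06%, 1.99%, and 3.85% after thinning.

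In the gates, Axin2 was high in Upk3b positive cells in E11.5, at 11.8 CPM, in E12.5, at 17.89, and in D6, at 41.95 (31.42 to 54.87), or 2.549, 2.891, and 2.976 times the level outside the gate. At E10.5 these cells had 10.51 CPM, 1.064 times (0.705 to 1.552) the level outside, and Pdgfra positive cells were the highest gate, at 12.85. Sox9 or Amh positive cells had 7.43, 4.17, 4.233, and 18.84. At E11.5 and E12.5 this was 0.589 and 0.464 of the level outside the gate, and at D6 it was 1.128 of it (0.764 to 1.625). Pax8 positive cells had 6.68, 15.25, 24.92, and 49.6 CPM, and the 2 highest D6 levels of Axin2 were thus in the Pax8 and Upk3b gates.

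Lef1 encodes a partner of β-catenin on DNA and lies on chromosome 3 at 131110471 to 131224356 on the plus strand. Its level was 20.76 CPM in E10.5, 17.14 in E11.5, 15.36 in E12.5, and 14.11 (12.06 to 16.41) in D6, and neighbours in this order, E11.5 with E12.5 and E12.5 with D6, have overlapping intervals. Unthinned shares were 14.7%, 14.8%, 14.65%, and 5.864%, but after thinning they were 5.91%, 4.35%, 3.73%, and 4.20%, so no order is read from them. Lef1 was also found in Pecam1 and Cdh5 positive cells, in 5 of 28 at E12.5 and 8 of 24 at E11.5, and at 41.07 CPM in E11.5 cells with germ cell markers.

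Like Axin2, Lef1 was lower in Sox9 or Amh positive cells than outside the gate at E11.5 and E12.5, whereas the D6 interval held 1 for both. The gate had 22.02 CPM in E10.5, 9.928 in E11.5, 7.026 in E12.5, and 14.66 in D6, and the ratio to the other cells was 0.449, 0.356, and 1.046 (0.6712 to 1.579) in E11.5, E12.5, and D6. Upk3b positive cells had 16.12, 30.78, 25.32, and 39.57, and 3.569 times the level of the other cells at D6. Pax8 positive cells had 42.3, 27.96, 10.68, and 33.73 CPM from E10.5 to D6, on 38, 22, 6, and 17 UMIs. A difference between the libraries in these ratios was not tested, since each is from 1 library.

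Germ cells held many of the UMIs of both genes in the embryo. Cells with germ cell markers, which had 14.14% of all UMIs in E11.5, 26.27% in E12.5, and 0.5428% in D6, had 32.41%, 38.58%, and 0% of the Axin2 UMIs and 33.89%, 45.33%, and 1.19% of the Lef1 UMIs. With these cells left out, an alternative added after the data were seen, the ratio of Sox9 or Amh positive to other cells for Axin2 was 0.8109 (0.5268 to 1.236) in E11.5, 0.4981 (0.3432 to 0.7119) in E12.5, and 1.129 in D6. For Lef1 it was 0.5107 (0.3898 to 0.6639), 0.4486 (0.34 to 0.5864), and 0.9724. Without germ cells, the interval of Axin2 at E11.5 thus held 1, while that of Axin2 at E12.5 and those of Lef1 at both stages stayed below 1.

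Foxl2 encodes the forkhead factor that holds granulosa identity and lies on chromosome 9 at 98955288 to 98958543 on the plus strand. It was scarce in every library, with 6 UMIs in 5 cells in E10.5, 9 in 8 in E11.5, 14 in 12 in E12.5, and 54 in 39 in D6. In CPM this was 0.1846, 0.3655 (0.167 to 0.694), 0.4097 (0.224 to 0.687), and 4.535 (3.407 to 5.918). D6 was 11.07-fold above E12.5 (6.065 to 21.58), while E11.5 and E12.5 overlap.

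The share of Foxl2-positive cells was 0.130%, 0.381%, 0.434%, and 1.707%, and after thinning 0.082%, 0.056%, 0.036%, and 0.951%. At E10.5, 3 of the 6 UMIs were in 2 of the 40 Pecam1 and Cdh5 positive cells, while 5 of the 6 were in Sox9 or Amh positive cells, so these groups share UMIs and no order is read from so few. At E12.5, 5 of the 14 UMIs were in cells with germ cell markers. At D6, 44 of the 54 UMIs were in Nr5a1 positive cells, whose level of 10.55 CPM was 8.157 times (4.044 to 18.18) that of the Nr5a1 negative cells.

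Of the 39 D6 cells with a Foxl2 UMI, 33 had an Nr5a1 UMI, 29 a Wnt4 UMI, 23 an Rspo1 UMI, and 14 a Runx1 UMI, and 10 were Sox9 or Amh positive. Over all D6 cells these shares were 29.06%, 58.47%, 12.65%, 9.015%, and 14.05%, in the same order. The 10 Sox9 or Amh positive cells made up 25.64% of the 39. UMIs of Foxl2 and of Sox9 or Amh thus occurred in the same barcodes in those 10. Foxl2-positive cells had 145.3 CPM of Rspo1 against 32.89 in the other D6 cells, 99.45 of Runx1 against 25.76, 99.45 of Amh against 31.77, and 57.37 of Pax8 against 15.54. Sox9 was alike in both, at 38.25 and 37.87, and Pdgfra was lower, at 22.95 against 84.24. These cells were deeper, with a median of 6709 UMIs against 4585.5.

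Runx1 encodes a transcription factor of early supporting cells in both sexes that is kept in granulosa cells, and lies on chromosome 16 at 92601466 to 92826149 on the minus strand. Its level was 2.522 CPM in E10.5, 18.44 (16.78 to 20.21) in E11.5, 8.31 (7.372 to 9.335) in E12.5, and 27.38 (24.49 to 30.52) in D6. All intervals stay apart, and D6 was 3.295-fold above E12.5 (2.801 to 3.877) and 1.485-fold above E11.5. With TMM factors the ratio of D6 to E11.5 was 1.091, so this smaller difference depends on the scaling. Between E10.5 and E11.5 the level differed 7.309-fold (5.766 to 9.364), in tissues dissected differently. Shares were 1.694%, 14.42%, 8.43%, and 9.015%, and after thinning 0.684%, 5.91%, 2.82%, and 6.31%.

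Sox9 or Amh positive cells had more Runx1 than the cells outside the gate by 3.976-fold in E11.5, 5.181-fold in E12.5, and 3.254-fold in D6. With germ cells left out, these ratios were 3.306 (2.668 to 4.119), 3.513 (2.68 to 4.647), and 3.256 (2.583 to 4.091). The 3 intervals overlap, so no order of the ratios is read. Levels inside the gate were 2.16 CPM in E10.5, 33.06 in E11.5, 17.61 in E12.5, and 65.43 (54.47 to 77.96) in D6. D6 was therefore 3.716-fold (2.953 to 4.661) above E12.5 in the gate, close to the ratio over all cells. Pax8 positive cells had 2 Runx1 UMIs in E10.5, and 22.87, 32.04, and 45.64 CPM in E11.5, E12.5, and D6, on 18, 18, and 23 UMIs. At E12.5 the Pax8 gate was thus above the Sox9 or Amh gate. The 206 Runx1-positive D6 cells had 9.804 times the Amh level, 3.293 times the Sox9 level, 3.224 times the Rspo1 level, and 7.486 times the Foxl2 level of the other cells, but 0.3715 of their Upk3b level.

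**Figure D3:**
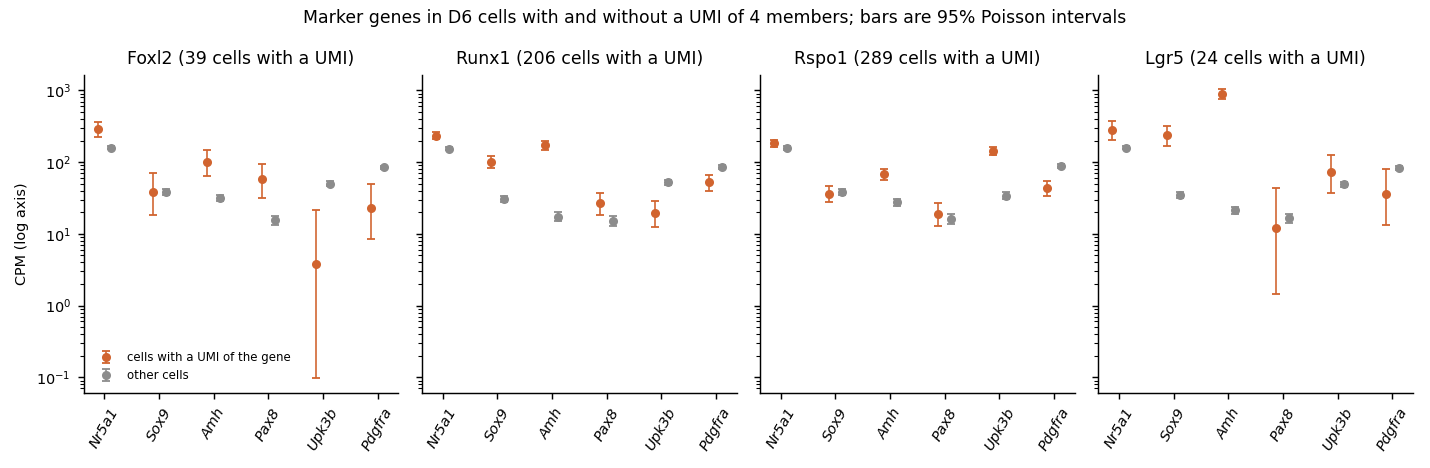
Level of 6 marker genes in D6 cells with a UMI of Foxl2, Runx1, Rspo1, or Lgr5 (orange) and in the other D6 cells (grey), in CPM on a log axis, with 95% Poisson intervals. Amh is higher in the positive cells in all 4 panels, and Upk3b is higher in the positive cells for Rspo1, at 141.3 against 34.02, and lower for Runx1.

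Rspo1-positive D6 cells, 289 in number, held 36 of the 54 Foxl2 UMIs, 76.31 CPM of Runx1 against 19.36 in the other cells, and 4.153 times their Upk3b level. The same ratio for Runx1 was 1.72 for E11.5 and 1.483 for E12.5, and that for Upk3b 3.854 and 12.92. The D6 cells with a UMI of Rspo1, Runx1, and Lgr5 had a median of 5006, 5178, and 6746.5 UMIs, compared with 4564, 4560, and 4599 in the other cells, and the part of depth and of doublets in these profiles was not tested. At D6, Rspo1 was thus found with genes of the Upk3b gate and with Runx1 alike. UMIs of both Rspo1 and Runx1 were found in 66 cells at D6, 105 at E11.5, and 50 at E12.5. These made up 22.84%, 24.19%, and 12.25% of the Rspo1-positive cells. Of all cells, 9.015%, 14.42%, and 8.43% had a Runx1 UMI, in the same order.

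Irx3 encodes a homeobox factor of early granulosa cells and lies on chromosome 8 at 91798525 to 91802067 on the minus strand. Its level was 37.53 CPM (35.45 to 39.7) in E10.5, 4.101 (3.341 to 4.984) in E11.5, 2.107 (1.648 to 2.653) in E12.5, and 2.016 (1.292 to 2.999) in D6. D6 and E12.5 overlap, D6 was 0.4915 of E11.5 (0.301 to 0.773), and E10.5 was 9.15-fold above E11.5. The share of positive cells was 15.53%, 3.332%, 1.809%, and 0.5252%, and after thinning 9.116%, 1.339%, 0.5065%, and 0.2503%. At E10.5, Irx3 was highest in Pdgfra positive cells, at 53.06, and in cells with no gate marker, at 40.4, with 15.27 in Sox9 or Amh positive cells, in the library whose tissue included dorsal mesenchyme. Nr5a1 positive cells of that library held 0 of its 1220 Irx3 UMIs. Only 24 UMIs were found at D6, of which 6 were in 3 of the 14 Pecam1 and Cdh5 positive cells.

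Fst encodes follistatin, a binding protein of activins that is made downstream of WNT4 and FOXL2 in the ovary, and lies on chromosome 13 at 114452290 to 114458951 on the minus strand. Its level was 20.61 CPM in E10.5, 2.477 (1.895 to 3.182) in E11.5, 0.7023 (0.45 to 1.045) in E12.5, and 4.031 (2.972 to 5.345) in D6. In counts these were 670, 61, 24, and 48 UMIs, found in 9.148%, 1.238%, 0.5065%, and 1.225% of cells, or 4.27%, 0.5577%, 0.1085%, and 0.8008% after thinning. The D6 and E11.5 intervals overlap, and D6 was 5.74-fold (3.448 to 9.798) above E12.5, which was 3.527-fold below E11.5. E10.5 was 8.32-fold above E11.5 and had overlapping intervals in the Sox9 or Amh gate, at 18.78, the Pax8 gate, at 24.49, and the Pdgfra gate, at 23.77. Nr5a1 positive cells, 1.876% of the E10.5 cells, held 1 of the 670 Fst UMIs of that library, whose tissue included dorsal mesenchyme. At E11.5, 14 of the 61 UMIs were in 3 Pax8 positive cells.

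**Figure D4:**
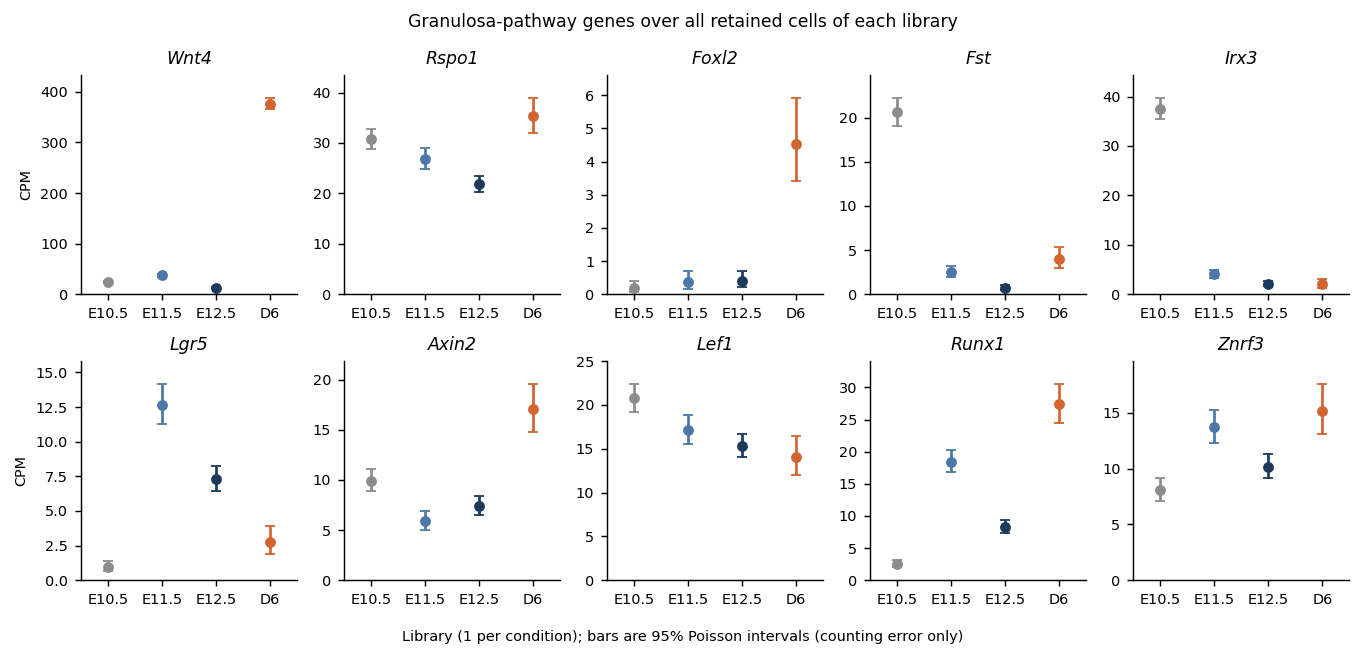
CPM of each member over all retained cells of E10.5, E11.5, E12.5, and D6, with 95% Poisson intervals and a separate vertical axis for each gene. Wnt4 is highest in D6, at 376.5, Irx3 and Fst are highest in E10.5, at 37.53 and 20.61, and Lgr5 is highest in E11.5, at 12.67. Nr5a1 positive cells of E10.5 held 0 of 1220 Irx3 UMIs and 1 of 670 Fst UMIs.

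Among Sox9 or Amh positive cells, the supporting cell gate, 6 members were at least 2-fold higher in D6 cells than in those of E12.5 and 0 were lower, where 28.3% of 9585 genes were higher and 7.67% lower. The 6 were Wnt4, Foxl2, Fst, Axin2, Lef1, and Runx1. Of the 7 members that reached 10 CPM, 4 were higher. Foxl2 rests on 14 UMIs at D6 and 5 at E12.5, and Fst on 10 in each. Axin2 was 4.452-fold higher (2.818 to 6.972) and Lef1 2.086-fold (1.308 to 3.236), whereas Rspo1 was 1.82-fold, Znrf3 1.274-fold, and Lgr5 0.6415-fold. Irx3 had 3 UMIs at D6 and 37 at E12.5 and is given as counts only. The cells compared in this gate also differ in their Sertoli genes, which were lower at D6. With TMM factors, 15.4% of genes were higher and 19.9% lower in the gate, and the log2 difference of Lef1 became 0.55, that of Lgr5 -1.16, and that of Znrf3 turned to -0.17.

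**Figure D5:**
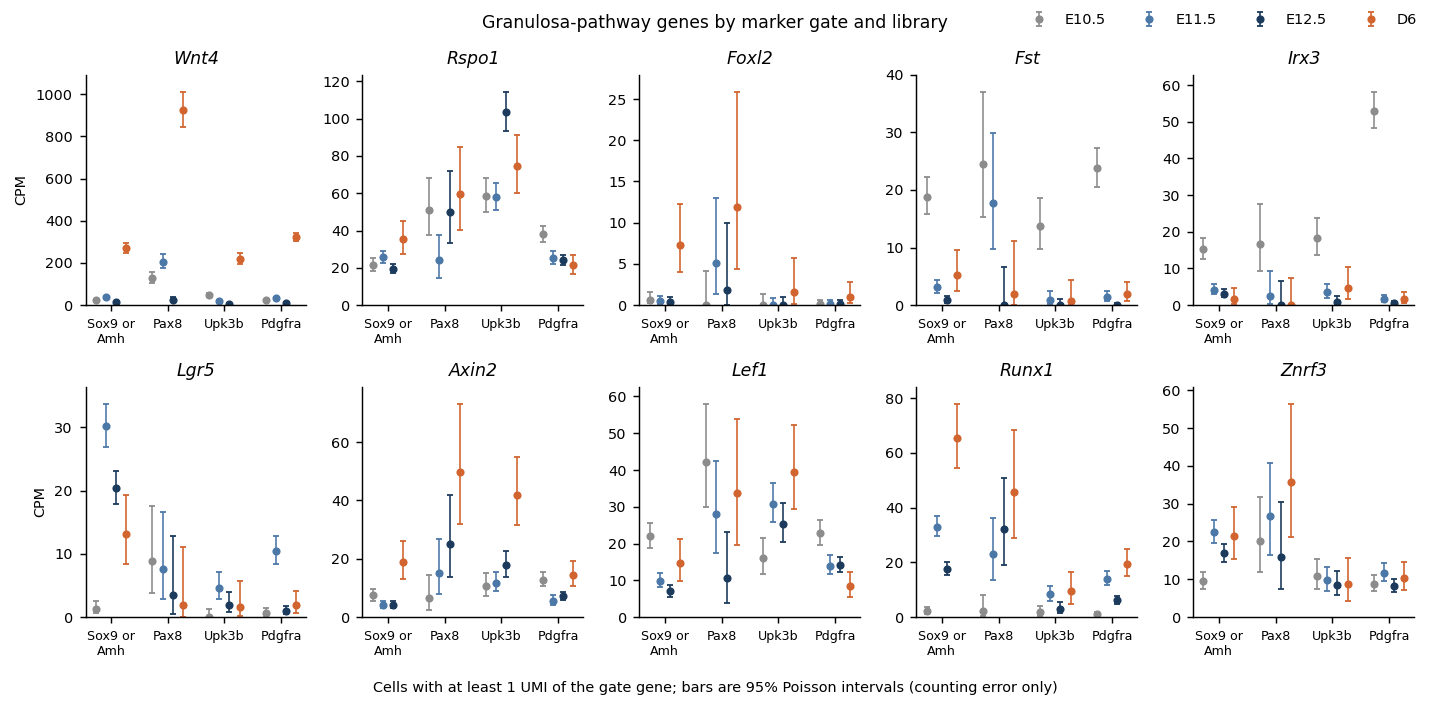
CPM of each member in Sox9 or Amh, Pax8, Upk3b, and Pdgfra positive cells of the 4 libraries, with 95% Poisson intervals and a separate vertical axis for each gene. Wnt4 is highest in Pax8 positive cells of D6, at 924.6, Lgr5 stands out in Sox9 or Amh positive cells of E11.5 and E12.5, and Rspo1 in Upk3b positive cells.

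Single cells rarely held several members. The mean number of members with a UMI was 0.826 per cell in E10.5, 1.005 in E11.5, 0.757 in E12.5, and 1.054 in D6, and the highest cell had 5, 6, 5, and 6. At least 3 members were found in 6.516%, 9.71%, 4.342%, and 7.615% of cells, so D6 lay within the range of the embryo although its cells were the shallowest. Cells with none of the 10 made up 46.49%, 40.55%, 46.74%, and 27.48%. Wnt4 weighs heavily in the D6 values, since 90.1%, 82.44%, 90.34%, and 41.53% of cells had no Wnt4 UMI. The same counts without Wnt4 were not made, so no wider detection of the other 9 members at D6 is read.

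Other genes of Wnt signaling were read from lists, and their counts stand beside the 27% of all genes that were at least 2-fold higher and the 7.83% that were lower in D6 than in E12.5. Of 17 other Wnt ligands and R-spondins, 5 reached 10 CPM at D6 or E12.5, of which 3 were at least 2-fold higher at D6 and 1 lower, with a median log2 difference of 1.60 against 0.32 for all genes. Wnt5a, a noncanonical ligand, had 33.34 CPM in E11.5, 46.53 in E12.5, and 141.4 in D6, and Wnt6 had 115.9, 149.1, and 31.83. Of 14 receptors and regulators of their turnover, 9 reached that level and all 9 were higher, among them the receptor genes Fzd2, at 17.46, 27.3, and 82.56, Fzd3, 3.661-fold, and Lrp6, 2.402-fold. In the signal transduction list, 10 of 15 such genes were higher and 0 lower, with a median of 1.30.

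Several genes of the steps on which the culture agents act are in that list. Gsk3b, whose kinase is inhibited by CHIR99021, was 3.199-fold and Tnks, whose tankyrase is inhibited by IWR1, 3.316-fold higher in D6 than in E12.5, and Tcf7l2, a relative of Lef1, was 5.346-fold higher, with 34.7 and 185.5 CPM. Gsk3a was 2.455-fold, Tnks2 2.453-fold, Apc, a scaffold of β-catenin degradation, 2.417-fold, Tcf7l1 4.262-fold, and Bcl9, a coactivator of β-catenin, 2.854-fold higher. Within 2-fold, among genes of the signal transduction list that reached 10 CPM, were Axin1 (1.47-fold), Ctnnb1 (1.606), Csnk1a1 (1.722), Dvl2 (1.449), and Tcf7 (0.9464). A response of any of these genes to the agents was not tested. Among 18 targets and inhibitors of the pathway, 3 of the 8 that reached 10 CPM were higher and 0 lower, and Sfrp2, a secreted Wnt antagonist, had 9.746 in E11.5, 10.8 in E12.5, and 135.6 in D6, and Sfrp1, of the same family, was 2.753-fold higher. The lists were drawn up with results of these libraries known.

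TMM factors, applied to the lists after the data were seen, lower each of these log2 differences by 0.47. The receptors that were higher then numbered 6 of 9, the signal transduction genes 6 of 15, and the targets and inhibitors 1 of 8, with 2 lower, beside 15.5% and 18.6% of all genes. Lrp6, Apc, Gsk3a, Tnks2, and Sfrp1 were no longer 2-fold higher, while Gsk3b, Tnks, Tcf7l1, Tcf7l2, Bcl9, Wnt5a, Fzd2, Fzd3, and Sfrp2 still were. The counts of ligands, of pregranulosa genes, and of Sertoli genes did not change.

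Of 15 further genes linked to pregranulosa cells, 7 reached 10 CPM. Of these, 2 were higher and 1 lower in D6 than in E12.5, beside 27% and 7.83% of all genes. Cdkn1b, a cell cycle inhibitor of early granulosa cells, was 6.2-fold higher, and Lhx9, a factor of the early gonad, was 2.2-fold lower. The other higher gene was also counted among the receptors. Among Sertoli genes, 1 of 16 was higher and 10 were lower, with a median log2 difference of -2.01. These levels are over all cells, of which 14.05% were Sox9 or Amh positive at D6 and 35.96% at E12.5, or 11.01% and 25.22% after thinning. Sox9 had 208.2 CPM in E11.5, 102.5 in E12.5, and 37.88 in D6, and Dhh, a Sertoli cell signal, 32.81, 56.3, and 4.283. Fgf9, Aard, and Cst9 were 2.041-fold, 21.08-fold, and 34.77-fold lower, and the gene that was higher was Nr5a1, by 3.582-fold, in the library selected on its reporter.

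For each member, the 3 genes with the most similar pattern were found by Pearson's r over 16 sums, the 4 gates in the 4 libraries, which share cells and libraries. For Wnt4 these were Ppp3r1 (r = 0.97), S100pbp (0.97), and Atp2c1 (0.96), and for Runx1 Carmil1 (0.96), Fndc5 (0.95), and Hsbp1l1 (0.93). The r does not measure the size of a difference. Over the sums Wnt4 spanned 5.78 to 924.6 CPM, compared with 30 to 67.46 for Ppp3r1, 9.908 to 59.53 for S100pbp, and 29.17 to 73.41 for Atp2c1. Irx3 was closest to its neighbour in the Iroquois family, Irx5 (0.96), followed by Pitx1 (0.93) and Isl1 (0.91), homeobox genes like itself. Foxl2 was closest to Greb1 (0.95), Klhdc8b (0.95), and Svip (0.94), Lgr5 to Sel1l3 (0.91), Cnp (0.91), and Vapa (0.90), and Rspo1 to Sh3bp4 (0.91), Tfdp2 (0.85), and Tubb4a (0.82). No sum held more than 14 Foxl2 UMIs, so the matches of Foxl2 rest on few counts. Fst was closest to Mvd (0.90), Psmf1 (0.89), and Mettl7a1 (0.89), Axin2 to Spice1 (0.92) and Cds2 (0.91), Znrf3 to Lpcat3 (0.92), Rassf10 (0.92), and Atp6v0b (0.90), and Lef1, with the weakest match, to Ctxn1 (0.82), Hist3h2ba (0.76), and Bod1 (0.76).

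A gene on the opposite strand overlaps 8 of the members, that is all but Wnt4 and Znrf3. Gm42449 overlaps Lef1 on the same strand but is not among the genes of the deposited matrices. An effect of these overlaps on the counts was not tested.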

How the data were processed

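Single-cell RNA was measured in 4 XY libraries with 10x Genomics 3′ kits. The authors deposited UMI counts per gene and cell on mm10 without normalization. Their processing notes name Cell Ranger 3.0.2 and the file headers 6.0.0. Cells were retained above and below the study's gene limits and below its mitochondrial limit, which were 1000, 4000, and 10% in E10.5, 500, 5000, and 20% in E11.5, 2000, 5000, and 8% in E12.5, and 1000, 4000, and 12% in D6. Retained UMIs numbered 11906360 to 34173977 per library.

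UMIs were summed per library and gate and scaled to total UMIs. Level intervals are exact Poisson, ratio and share intervals exact binomial (Clopper-Pearson), at 95%. With 1 library per condition no test was made, and 2-fold was the limit for calls. A gene with at most 3 UMIs in a group was given as counts. Scrublet (scanpy 1.11.5) marked 164, 56, 27, and 46 cells as doublets, which were left in. The protocol label names female tissue where the titles give XY, and the Y-linked shares are given for this reason. Patterns were compared on log2(CPM + 10) over genes with at least 20 in a sum. A further gene of similar pattern to Axin2 is not reported here. List genes were named if 2-fold apart at D6 from both E11.5 and E12.5 with at least 50 CPM in 1 library. For the signal transduction list, genes within 2-fold of E12.5 were named too. The ratio step was tested on simulated data. Python 3.11.15, numpy 2.4.6, scipy 1.17.1, pandas 2.3.3, R 4.3.3, edgeR 4.0.16 (TMM), and DESeq2 1.42.0 (size factors) were used. The members and lists were chosen with earlier results of these data known, and the Pecam1 and Cdh5 group after values were seen.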

Additional observations from a re-analysis of the deposited data

How the results depend on the processing

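The 8 counts of members past 2-fold were recomputed with TMM factors, DESeq2 size factors, a common cell filter, all deposited barcodes, Scrublet doublets left out, other cell types left out, and a 1.5-fold limit, and for the Sox9 or Amh gate with 3 other gates. Of these recomputed counts, 57 stayed within 1.5 times and 5 did not. Single values moved more often. Of the log2 differences of members, 57 lay outside the 95% interval of the reported value and 199 inside it. In gates of at least 2 UMIs or of cells positive for 1 gate only, 115 levels lay outside and 205 inside, and with thinning added 110 shares of cells lay outside and 250 inside. Of the shares of all genes past the limit, 26 moved by over 1.5 times and 52 did not. With germ cells left out, 5 ratios of Sox9 or Amh positive to other cells lay outside the interval computed with them, and 35 inside. The 5 were Runx1 at E12.5, and Wnt4 and Rspo1 at E11.5 and E12.5. At those 2 stages Wnt4 became 0.8186 and 0.7397, and Rspo1 0.7584 and 0.5975. With all deposited barcodes, the members lower in D6 than in E11.5 numbered 1 in place of 2, since Irx3 was lost. At 1.5-fold, 5 members were lower at E12.5 than at E11.5, with Irx3 and Lgr5 added to the 3. In the Sox9 or Amh gate, 1 member, Lgr5, became lower at D6 than at E12.5 with TMM factors, with size factors, and at 1.5-fold, compared with 0. No log2 difference past 2-fold changed sign under these alternatives, but some within 2-fold did, those of Rspo1, Znrf3, Lef1, Irx3, Foxl2, and Lgr5 each in at least 1 comparison. Thinning each cell to 3000 UMIs before the gate gave 4 members higher there, Wnt4, Lef1, Runx1, and Rspo1, and a gate of at least 2 UMIs or of cells outside the other gates gave 6 with Rspo1 in place of Fst or Foxl2. With other cell types left out, Irx3 replaced Runx1 among the 3 members lower at E12.5 than at E11.5. The cause of these changes was not tested.

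No paired analysis was possible because each condition has 1 library. For the same reason, no library could be left out, and no value here separates a condition from its library. At the depth of D6, Foxl2, Fst, Irx3, and Lgr5 rest on 24 to 54 UMIs, and their differences between gates of D6 were often not detectable at this depth.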
